A study of Mus musculus with 24 samples.

Results

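The cluster of miR-183, miR-96, and miR-182 was measured here through 4 mature miRNAs, mmu-miR-182-5p, mmu-miR-183-5p, mmu-miR-96-5p, and mmu-miR-183-3p, chosen by name from the 1531 mouse entries of the miRNA-Seq tables. All 4 were listed in every region. The samples were CD1 mouse pups of both sexes at postnatal day 9, 4 with hypoxic-ischemic brain injury (HIBI) and 4 sham. HIBI pups (pups 1, 4, 5, and 7) had the right carotid artery cauterized, recovered for 2 h, and then breathed 8% oxygen for 30 min. Sham pups (pups 2, 3, 6, and 8) had the surgery without ligation and stayed in room air. Pups of both groups had isoflurane anesthesia and bupivacaine, and the right cerebellum, striatum/thalamus, and cortex of each pup were taken 30 min after the injury, giving 24 libraries. The ligated artery feeds the anterior circulation, so the cerebellum had the hypoxia of the model without the direct loss of its arterial supply.

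The members come from neighbouring hairpins that are transcribed together as a single primary transcript and then cut apart by Drosha and Dicer. The cluster is best known from sensory organs, where it is abundant in photoreceptors, hair cells of the inner ear, and other sensory neurons, and inherited changes in the seed of miR-96 cause hearing loss in mice and humans. A miRNA finds its targets mainly through its seed, so sequence differences there set which transcripts each member can pair with.

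The mature sequences below are from RefSeq on GRCm38.p6, 5′ to 3′, with the seed (bases 2 to 8) in capitals. They are shown because the 5p members of the cluster differ by so little in the seed, and because their similarity bears on how reads were assigned.
mmu-miR-182-5p: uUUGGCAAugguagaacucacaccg
mmu-miR-183-5p: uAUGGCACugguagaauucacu
mmu-miR-96-5p: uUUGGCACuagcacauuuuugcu
mmu-miR-183-3p: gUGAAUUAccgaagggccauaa

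With positions counted from 1 at the 5′ end, the seed of miR-96-5p differed from that of miR-182-5p by the single substitution A8C (miR-182-5p base first) and from that of miR-183-5p by A2U (miR-183-5p base first). The seeds of miR-182-5p and miR-183-5p differed by U2A and A8C. Over the whole length the likeness took another order. Aligned from the 5′ end without gaps, miR-182-5p and miR-183-5p were identical at 18 of 22 bases, miR-183-5p and miR-96-5p at 13 of 22, and miR-182-5p and miR-96-5p at 12 of 23. Among the 1291 mouse entries matched to RefSeq by name, 0 had the same seed as a member.

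All of these lie on the minus strand of chromosome 6. On GRCm38.p6, miR-182-5p is at chr6:30165962-30165986, miR-96-5p at chr6:30169506-30169528, miR-183-3p at chr6:30169672-30169693, and miR-183-5p at chr6:30169711-30169732. Their hairpins, Mir182, Mir96, and Mir183, span 3820 bp, and 116 bp separate Mir96 from Mir183. In GENCODE M21 the cluster is intergenic. The nearest annotated gene is the lincRNA Rncr4, on the opposite strand and 3156 bp away, and the nearest protein-coding gene is Nrf1, 12460 bp away.

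The libraries held between 1254185 and 3406624 reads on mouse miRNAs. Levels are given in CPM, the counts scaled to a common library total of mouse miRNA reads, after trimmed mean of M values (TMM) scaling over the 24 libraries. Zero reads of a member in a library allowed up to 0.881 to 2.39 CPM (3 reads), depending on depth. The neuronal miRNAs miR-124-3p, miR-9-5p, and miR-128-3p together reached 78900 to 223731 CPM in every library. The hindbrain miRNAs miR-10a-5p, miR-10b-5p, miR-196a-5p, and miR-196b-5p together reached 476 to 1835 CPM in cerebellum, 117 to 268 CPM in striatum/thalamus, and 37.3 to 112 CPM in cortex libraries. Nearly all of this was miR-10a-5p and miR-10b-5p, as miR-196a-5p and miR-196b-5p reached at most 1.8 and 2.9 CPM in any library. The hindbrain sum thus followed the region labels, while the neuronal list, high in every region, matched brain tissue only. Replicate libraries all differed by more than counting noise. In such tissue samples, fewer cells of a type and less RNA per cell cannot be told apart.

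The cluster was a cerebellar signal in these pups. In the cerebellum, miR-182-5p, the most abundant member, was 1354, 1331, 617, and 1184 CPM in sham pups 2, 3, 6, and 8, and 599, 1090, 625, and 668 CPM in HIBI pups 1, 4, 5, and 7. Its striatum/thalamus levels were 92.7, 33.9, 19.1, and 43.1 CPM in the sham pups and 57.5, 20.3, 67.5, and 81.1 CPM in the HIBI pups, in the same order. In the cortex it was 203, 45.6, 23.6, and 22.2 CPM in the sham pups and 19.4, 32.5, 60.5, and 42.1 CPM in the HIBI pups. The lowest cerebellum library (599 CPM) stood above the highest forebrain library, the cortex of sham pup 2 (203 CPM).

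MiR-183-5p, which is cut from the hairpin at the other end of the cluster, had the same regional order at a lower level. In the cerebellum it was 463, 602, 250, and 490 CPM in sham pups 2, 3, 6, and 8, and 262, 399, 256, and 219 CPM in HIBI pups 1, 4, 5, and 7. Its striatum/thalamus levels were 42.8, 17.1, 15.8, and 35.1 CPM in the sham pups and 15.6, 19.0, 44.2, and 44.3 CPM in the HIBI pups. In the cortex it was 90.8, 29.7, 19.0, and 8.37 CPM in the sham pups and 11.6, 15.8, 30.2, and 21.5 CPM in the HIBI pups. Again the cerebellum and forebrain libraries did not overlap, and again the cortex of sham pup 2 came closest.

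MiR-96-5p, the member known from inherited deafness, was rare although its hairpin lies between the other members. Its reads in the cerebellum were 7, 20, 26, and 16 in sham pups 2, 3, 6, and 8, and 2, 34, 12, and 7 in HIBI pups 1, 4, 5, and 7. In the forebrain it had 2 reads in each of the cortex libraries of sham pups 2 and 8, 1 read in the cortex of HIBI pup 5, 2 reads in the striatum/thalamus of HIBI pup 5, and 0 in the other libraries. The lowest cerebellum library and the highest forebrain library had 2 reads each (1.29 and 0.971 CPM), both under the 3 reads of the floor, so the libraries of this member could not be separated at this depth. Over the 8 cerebellum libraries its mean level of 7.09 CPM compared with 933 CPM of miR-182-5p, a 132-fold difference. Mature miRNAs are of nearly equal length and a read covers the whole of one, so no length correction was made between members. How evenly the library preparation captured each sequence was not measured, so differences between members are differences in reads.

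MiR-183-3p, the opposite arm of the Mir183 hairpin, was also rare. It had 16, 5, 9, and 11 reads in the cerebellum of sham pups 2, 3, 6, and 8, and 5, 21, 3, and 5 reads in that of HIBI pups 1, 4, 5, and 7. In the cortex there were 6, 3, 0, and 1 reads in the sham pups and 0, 5, 0, and 0 in the HIBI pups, and in the striatum/thalamus 6 reads, all from HIBI pup 7. Its cerebellum and forebrain libraries overlapped, with 5 of 8 cerebellum libraries above every forebrain library. Of all reads of the Mir183 hairpin arms, the 3p arm took 1.16% in cerebellum (75 of 6486 reads), 1.28% in striatum/thalamus (6 of 470), and 2.53% in cortex libraries (15 of 593).

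**Figure D1:**
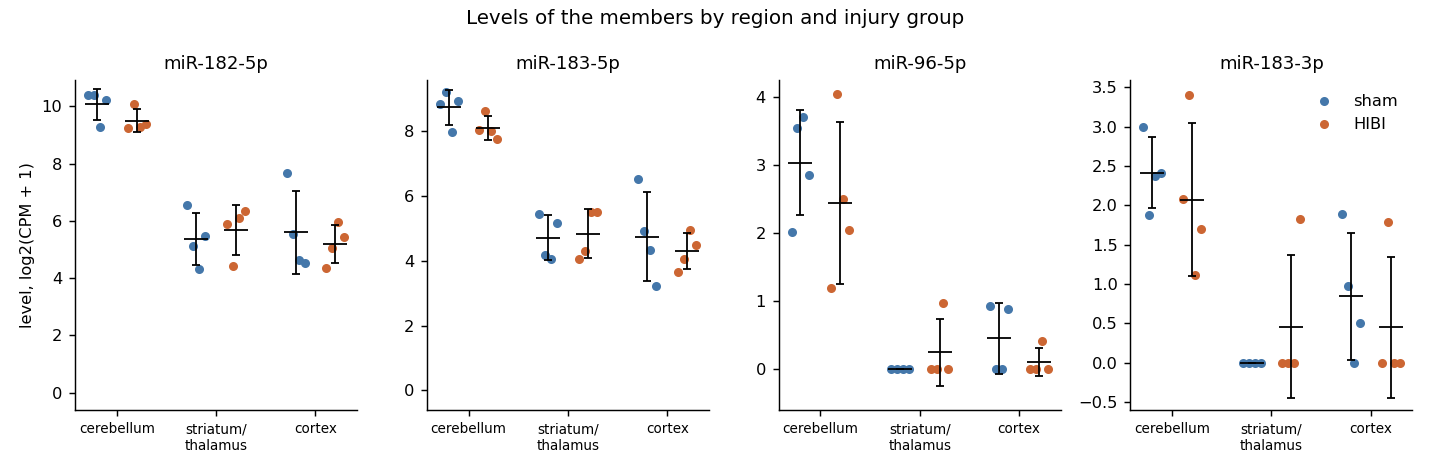
Levels of the 4 members, as log2(CPM + 1) on the vertical axis, in each library by region on the horizontal axis, with sham in blue and HIBI in orange. Horizontal marks are means and bars are SD of 4 pups, and each panel has its own scale. For miR-182-5p and miR-183-5p all 8 cerebellum libraries lie above all 16 forebrain libraries, for miR-96-5p the nearest of them have 2 reads each, and the cortex of sham pup 2 is the highest forebrain point for miR-182-5p (203 CPM) and miR-183-5p (90.8 CPM).

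The regional difference was tested in sham pups and HIBI pups separately, with edgeR's quasi-likelihood test over the 12 libraries of each set. A miRNA was counted as different with a Benjamini-Hochberg adjusted p under 0.05 and a fold change above 1.5. In sham pups, all 4 members were lower in the cortex than in the cerebellum, against 31.5% of the 425 miRNAs tested, and all 4 were lower in the striatum/thalamus than in the cerebellum, against 30.6%. The median log2 fold change of the members was -3.78 in the cortex, where that of all 425 was -0.14. In the striatum/thalamus it was -4.13 with both rare members set at the bounds given below, where that of all 425 was -0.04. In HIBI pups, miR-182-5p, miR-183-5p, and miR-96-5p were lower in the cortex, against 17.4% of 448 miRNAs, and in the striatum/thalamus, against 27.0%.

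MiR-182-5p averaged 1122 ± 345 CPM (SD, n = 4) in the sham cerebellum, 73.7 ± 87.1 CPM in the sham cortex, and 47.2 ± 31.9 CPM in the sham striatum/thalamus. The log2 fold change by edgeR's quasi-likelihood test was -3.93 in the cortex (SE 0.69, adjusted p = 1.91e-04) and -4.49 in the striatum/thalamus (SE 0.71, adjusted p = 5.84e-05). In HIBI pups, with 745 ± 231 CPM in the cerebellum, 38.6 ± 17.3 CPM in the cortex, and 56.6 ± 26.0 CPM in the striatum/thalamus, the same test gave -4.31 (SE 0.45, adjusted p = 4.80e-06) and -3.79 (SE 0.44, adjusted p = 1.49e-05). Without sham pup 2, whose cortex was high, the sham cortex difference grew to -5.07.

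MiR-183-5p averaged 451 ± 147 CPM (SD, n = 4) in the sham cerebellum, 37.0 ± 36.9 CPM in the sham cortex, and 27.7 ± 13.4 CPM in the sham striatum/thalamus. By edgeR's quasi-likelihood test its log2 fold change was -3.63 in the cortex (SE 0.59, adjusted p = 1.04e-04) and -3.96 in the striatum/thalamus (SE 0.61, adjusted p = 4.41e-05). In HIBI pups the levels were 284 ± 78.8, 19.8 ± 8.05, and 30.8 ± 15.6 CPM in the cerebellum, cortex, and striatum/thalamus. The changes against the cerebellum were -3.88 in the cortex (SE 0.43, adjusted p = 9.49e-06) and -3.26 in the striatum/thalamus (SE 0.42, adjusted p = 3.62e-05). Without sham pup 2 the sham cortex difference grew to -4.52.

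For the rare members the size of the difference rested on few forebrain reads. In sham pups, miR-96-5p was 20.7 times as frequent in cerebellum reads as in cortex reads (69 and 4 reads, 95% exact counting interval 7.74 to 78.2). It was at least 19.7-fold higher than in the striatum/thalamus, where its 0 reads were set at 3 over the group. In HIBI pups the ratio was 65.9 against the cortex (55 and 1 reads, interval 11.4 to 2651) and 25.2 against the striatum/thalamus (55 and 2 reads, interval 6.64 to 213). For miR-96-5p the adjusted p by edgeR's quasi-likelihood test lay between 4.65e-04 and 0.00421 in these 4 comparisons. The intervals cover counting error only. Single pups moved these ratios, as values chosen after the data were seen show. HIBI pup 4 held 34 of the 55 cerebellum reads, and without it the ratios were 27.1 (21 and 1 reads) and 9.98 (21 and 2 reads, interval 2.44 to 87.8). HIBI pup 5 held all forebrain reads of miR-96-5p in HIBI pups, and without it the differences were at least 16.9-fold and at least 13.8-fold. The sham cortex ratio was 42.5 without pup 2, 12.8 without pup 3, 11.6 without pup 6, and 35.9 without pup 8, and the bound for the sham striatum/thalamus was 12.1-fold without pup 3 and 11.5-fold without pup 6.

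MiR-183-3p was 4.93 times as frequent in cerebellum as in cortex reads of sham pups (41 and 10 reads, interval 2.43 to 11.0), with an adjusted p of 0.0282 by edgeR's quasi-likelihood test. Against the striatum/thalamus of sham pups it was at least 11.7-fold higher (41 and 0 reads, adjusted p = 0.00201). The sham cortex ratio was 8.57 without pup 2, with 25 and 4 reads, and 3.44 without pup 6, with 32 and 10 reads. In HIBI pups, pup 4 held 21 of 34 cerebellum reads. Without it the striatum/thalamus ratio went from 5.19 to 2.06 (13 and 6 reads, interval 0.730 to 6.61). Without HIBI pup 7, which held all 6 striatum/thalamus reads, the difference was at least 8.24-fold (29 and 0 reads). In HIBI pups the log2 fold changes of -2.79 in the cortex (SE 1.21, adjusted p = 0.0962) and -2.36 in the striatum/thalamus (SE 1.19, adjusted p = 0.117) did not pass the test. With the pup as a block in the same test, the first of these was -2.88 and passed (adjusted p = 0.0450). Without sham pup 3, 6, or 8, the sham cortex difference of this arm lost its call (adjusted p = 0.0792, 0.110, and 0.131), as did the difference of miR-96-5p in the HIBI striatum/thalamus without pup 4 (adjusted p = 0.0601).

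Between the forebrain regions no member passed the test of edgeR in either set of pups. Of the miRNAs tested, 36.5% passed in sham pups (155 of 425) and 27.9% in HIBI pups (125 of 448). At an unadjusted p under 0.05 by the same test, whatever the fold, there were 196 and 187. For miR-182-5p, striatum/thalamus against cortex, the log2 fold change was -0.56 in sham pups (SE 0.64) and 0.52 in HIBI pups (SE 0.40), and for miR-183-5p it was -0.33 (SE 0.57) and 0.62 (SE 0.40). Without sham pup 2 the sham values became 0.10 and 0.27. DESeq2 counted 1 member in sham pups (miR-183-3p, 0 against 10 reads, adjusted p = 0.0440), and so did edgeR's quasi-likelihood test with no CPM minimum (miR-182-5p, -0.88, adjusted p = 0.00511). Of all miRNAs, DESeq2 counted 156 of 425 in sham pups, and edgeR with no CPM minimum 150 of 1380. The order of the levels was therefore cerebellum first, with the forebrain regions not distinguished beyond their spread.

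Of the 437 miRNAs above 10 CPM on average or in the cluster, 8.70% (38) had every cerebellum library above every forebrain library, as miR-182-5p and miR-183-5p did. MiR-96-5p is counted among the 38 on values of 2 reads against 2. Ranked by the ratio of mean levels (CPM + 1) in the cerebellum and forebrain, miR-182-5p was 5th (17.0-fold), miR-183-5p 6th (12.4-fold), miR-96-5p 10th, and miR-183-3p 28th of 437. The 4 that ranked above miR-182-5p were miR-216b-5p, miR-216a-5p, and miR-217-5p, which are encoded together in a cluster known from the pancreas, and miR-206-3p, known from skeletal muscle. These were named after their values were seen. The skeletal muscle list that holds miR-206-3p (4 miRNAs, all with reads in the cerebellum) summed to 350 to 653 CPM in cerebellum, 39.3 to 141 CPM in striatum/thalamus, and 28.4 to 64.4 CPM in cortex libraries. Most of the cerebellum sum, with means of 522 CPM in sham and 484 CPM in HIBI pups, was miR-206-3p itself. That miRNA, named for its rank, averaged 353 CPM in cerebellum and 18.9 CPM in forebrain libraries. The part of this list in the difference was not tested.

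Over the 24 libraries, the miRNAs whose log2(CPM + 1) was most like that of the summed members were miR-15b-5p (Pearson r = 0.944), a cell cycle regulator of the miR-15/16 family, then miR-216b-5p (0.924), miR-216a-5p (0.921), miR-217-5p (0.919), and miR-130a-3p (0.916). This is a description of 433 miRNAs compared, with a median r of 0.03 and a 95th percentile of 0.805, over libraries that fall into a cerebellar and a forebrain set. MiR-15b-5p ranged from 4295 to 10143 CPM in the cerebellum and from 1077 to 2026 CPM in the forebrain regions. MiR-216b-5p ranged from 3339 to 8325 CPM in the cerebellum and from 111 to 453 CPM in the forebrain. All 5 thus shared the cerebellar excess of the cluster.

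HIBI and sham were compared within each region with edgeR's quasi-likelihood test on 8 libraries, by the criteria of a fold above 1.5 with an unadjusted p under 0.05. In the cerebellum, only miR-183-5p met them, as 1 of 4 members, where 4.13% of the 436 miRNAs tested were counted as lower in HIBI. Its level was 284 ± 78.8 CPM in HIBI and 451 ± 147 CPM in sham pups (SD, n = 4). The log2 fold change was -0.65 (SE 0.29, Benjamini-Hochberg adjusted p = 0.431 by edgeR), with an unadjusted p of 0.0420 by edgeR and of 0.114 by an exact permutation of the pups (two-sided, on log2 of CPM + 1). For miR-182-5p, at 745 ± 231 and 1122 ± 345 CPM, the log2 fold change of -0.57 (SE 0.27) fell short of both criteria, with an unadjusted p of 0.0586 by edgeR and of 0.114 by the exact permutation test. The smallest p that 4 against 4 pups allow in the exact permutation test is 0.0286.

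The libraries of the groups overlapped for every member in the cerebellum, where 3.90% of miRNAs did not overlap. Sham pup 6, at 617 CPM of miR-182-5p, lay among the HIBI libraries, and HIBI pup 4, at 1090 CPM, lay near the other sham libraries. MiR-96-5p had a log2 fold change of -0.37 (SE 0.67) and miR-183-3p of -0.16 (SE 0.63), which turned to 0.01 when libraries were scaled by size alone. The median over the 4 members was -0.47, where that of all 436 miRNAs was 0.11 with TMM and 0.27 with library size alone. With library size alone miR-182-5p was at -0.41 and miR-183-5p at -0.49 and 0 members were counted, and with upper quartile scaling, which set the median of all miRNAs at -0.02, both were counted (-0.72 and -0.79). The split of all miRNAs counted moved too, from 18 higher of 36 with TMM to 41 of 51 with library size alone and 7 of 46 with upper quartile scaling.

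Whether miR-183-5p was counted in the cerebellum depended on single pups. Without pup 1, 2, 3, 5, 7, or 8 in turn it lost its call, and its log2 fold change was -0.64, -0.68, -0.47, -0.61, -0.55, and -0.69. Without pup 4 or pup 6, miR-182-5p was counted as well, at -0.77 and -0.81. Of all miRNAs, 43 and 79 of 437 were counted in these fits, against 36 of 436 with all pups. The erythrocyte list (5 miRNAs) had a lower summed level in HIBI too. It summed to 2364, 2163, 1233, and 2183 CPM in the cerebellum of sham pups 2, 3, 6, and 8, and to 1233, 1353, 930, and 1141 CPM in that of HIBI pups 1, 4, 5, and 7. Most of this sum was miR-486a-5p and miR-486b-5p, which are near-identical, while miR-451a, the main erythrocyte marker, overlapped widely (149, 177, 219, and 520 CPM in sham pups and 129, 194, 247, and 315 CPM in HIBI pups, in the same order). The list of choroid plexus and ciliated epithelium (7 miRNAs, mostly miR-204-5p) also had a lower mean in HIBI, at 10257, 4657, 2588, and 4650 CPM in the sham pups and 3374, 2863, 2785, and 4089 CPM in the HIBI pups. Sham pup 6 was the lowest sham library in both sums, as it was for miR-182-5p. Other lists had a higher mean in the HIBI than in the sham cerebellum. These were pituitary, endocrine, and epithelial (2636 and 1572 CPM), endothelium and mural cells (7647 and 6059 CPM), myeloid (695 and 494 CPM), and neuronal (155018 and 150989 CPM). The hindbrain (753 and 1013 CPM) and skeletal muscle (484 and 522 CPM) means were lower in HIBI. The part of these cell types in the difference was not tested.

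In the striatum/thalamus, the region with the largest loss of blood flow in this model, 0 of the 4 members met the criteria, where 2.74% of 438 miRNAs did by edgeR (14 at an unadjusted p under 0.05 whatever their fold, and 0 members by DESeq2). The log2 fold change was 0.20 for miR-182-5p (SE 0.52, adjusted p = 0.978) and 0.09 for miR-183-5p (SE 0.47, adjusted p = 0.991) by edgeR's quasi-likelihood test. The groups overlapped for all 4, where 1.83% of miRNAs did not. MiR-96-5p and miR-183-3p had under 10 reads in this region and no fold is given.

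In the cortex, 0 of the 4 members met the criteria, where 3.40% of 412 miRNAs did (19 at an unadjusted p under 0.05 whatever their fold, and 0 members by DESeq2), and the groups overlapped for all 4, where again 3.40% of miRNAs did not. The log2 fold change was -0.95 for miR-182-5p (SE 0.65, adjusted p = 0.922 by edgeR) and -0.90 for miR-183-5p (SE 0.60, adjusted p = 0.922 by edgeR). These values rested on 1 library. Sham pup 2 held 69.0% of the summed miR-182-5p level of its group and 61.4% of that of miR-183-5p, and without it the log2 fold change turned to 0.37 and 0.09. MiR-183-3p moved likewise, from -0.73 to 0.26. With no CPM minimum, edgeR's test counted both miR-182-5p and miR-183-5p in the cortex (-0.91 and -0.87), and without sham pup 8 it counted miR-183-5p (-1.24).

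**Figure D2:**
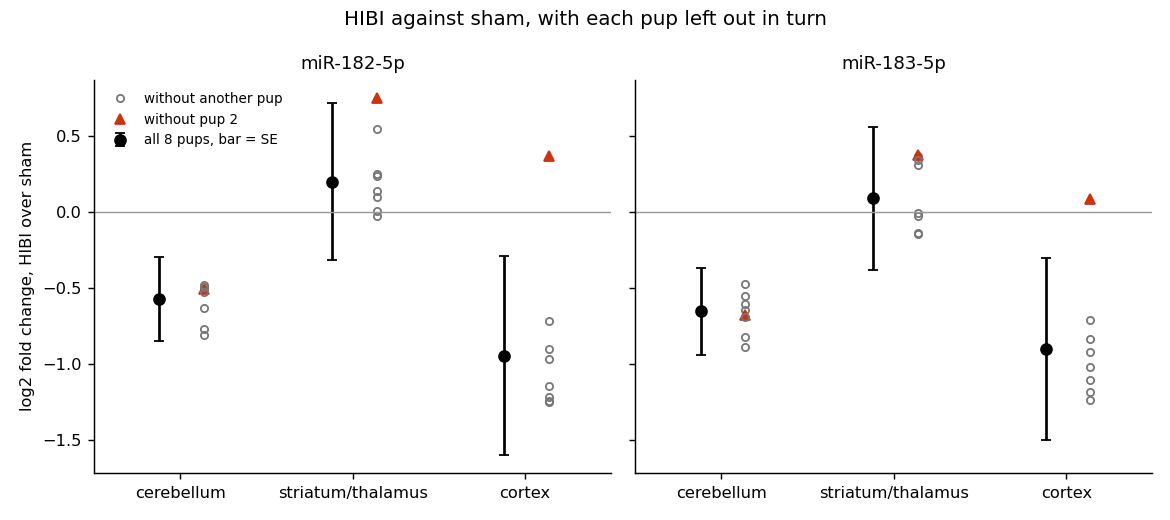
Log2 fold change of HIBI over sham (vertical axis) for miR-182-5p and miR-183-5p in each region. Filled black points with SE bars use all 8 pups, open circles leave out 1 other pup, and red triangles leave out sham pup 2. In the cerebellum every value is below 0, and in the cortex the value is above 0 only without pup 2 (0.37 and 0.09).

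The injury effect was then compared between regions in a model of all 24 libraries. Averaged over both forebrain regions, the effect minus that in the cerebellum was 0.28 for miR-182-5p (SE 0.68) and 0.32 for miR-183-5p (SE 0.60) on the log2 scale. The effect in the striatum/thalamus minus that in the cortex was 1.19 (SE 0.80) and 1.05 (SE 0.73). Neither passed an adjusted p of 0.05 by edgeR's quasi-likelihood test, where 0.00% of the 437 miRNAs passed in both contrasts (70 and 7 at an unadjusted p under 0.05, and 6 and 0 by DESeq2).

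The members of the cluster were next compared with each other between libraries of a region. Of 12 relations computed, that of miR-182-5p with miR-183-5p was the only one past the threshold after Benjamini-Hochberg adjustment. In the cortex, Pearson's r of log2(CPM + 1) over the 8 pups was 0.953 (exact permutation p = 7.94e-04, adjusted p = 0.00952) and Spearman's rho was 0.952 (exact permutation p = 0.00114, adjusted p = 0.0137), and r was 0.837 without pups 1 and 2, the farthest from the median. In the cerebellum r was 0.953 (exact permutation p = 0.00528, adjusted p = 0.0317), or 0.944 without pups 2 and 3. Its rho of 0.714 did not pass (exact permutation p = 0.0576, adjusted p = 0.332). In the striatum/thalamus r was 0.751 (exact permutation p = 0.0420, adjusted p = 0.168) and rho 0.667 (exact permutation p = 0.0831, adjusted p = 0.332), or r = 0.660 without pups 4 and 6. The pooled pups include both injury groups.

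No relation with a rare member passed. In the cerebellum, where all 8 libraries had reads, miR-96-5p gave r = 0.339 with miR-182-5p (exact permutation p = 0.407, adjusted p = 0.489) and 0.370 with miR-183-5p (exact permutation p = 0.358, adjusted p = 0.489), with rho at 0.119 and 0.143. The arms of Mir183 gave r = 0.432 (exact permutation p = 0.282, adjusted p = 0.484) and rho 0.405, and r was 0.805 without pups 3 and 8. These members had between 2 and 34 reads per cerebellum library, so that counting error alone is large.

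**Figure D3:**
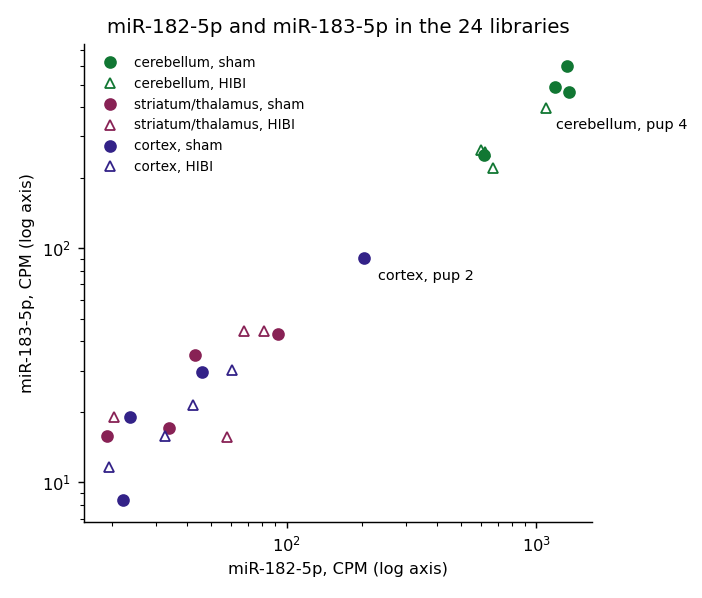
MiR-182-5p (horizontal axis, CPM, log scale) against miR-183-5p (vertical axis, CPM, log scale) in each of the 24 libraries, with regions by color, sham as filled circles and HIBI as open triangles. The cerebellum libraries form a separate set at the upper right, and the cortex of pup 2 lies alone between that set and the other forebrain libraries, at 203 and 90.8 CPM.

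Several libraries that stood out did so in more than 1 member. The cortex of sham pup 2 was the highest sham cortex library for miR-182-5p, miR-183-5p, and miR-183-3p, at 6.67 times the mean of the other 3 for miR-182-5p and 4.77 times for miR-183-5p, with 6 of the group's 10 reads of miR-183-3p. For miR-96-5p it had 2 reads, as had sham pup 8. The striatum/thalamus of the same pup was also the highest sham library of its region for miR-182-5p (92.7 CPM, 2.90 times the others' mean) and miR-183-5p (42.8 CPM, 1.89 times). Its cerebellum was the highest sham library for miR-182-5p and miR-183-3p but not for miR-183-5p or miR-96-5p. In the HIBI cerebellum, pup 4 was the highest of its group for all 4 members, at 1.73 times the mean of the others for miR-182-5p, 1.62 for miR-183-5p, 5.13 for miR-96-5p, and 4.35 for miR-183-3p. The forebrain libraries of pup 4 did not lead in miR-182-5p or miR-183-5p, and its striatum/thalamus library had the lowest HIBI level of miR-182-5p (20.3 CPM), while its cortex held the 5 reads of miR-183-3p of that group.

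In the HIBI cortex, pup 5 was the highest library for miR-182-5p and miR-183-5p (60.5 and 30.2 CPM, with 1 read of miR-96-5p), and in the HIBI striatum/thalamus pup 7 was the highest for miR-182-5p, miR-183-5p, and miR-183-3p (81.1 CPM, 44.3 CPM, and 6 reads). Between regions of a pup, miR-182-5p lay on the same side of its group mean in the striatum/thalamus and cortex in 6 of 8 pups, and in the cerebellum and either forebrain region in 3 of 8. For miR-183-5p the counts were 6, 4, and 4 of 8.

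The deviations of the summed members from their 6 group means were most like those of miR-200c-3p (r = 0.757 over 24 libraries, 0.670 over the 21 without pup 2), a member of the miR-200 family that holds down Zeb1 and Zeb2 in epithelia. The next were miR-466b-3p (0.450), miR-34c-5p (0.448), miR-200b-3p (0.446), and miR-467d-3p (0.442), against a 95th percentile of 0.344 over 433 miRNAs. MiR-200b-3p fell to 0.195 without pup 2. These are descriptions, and the members of a library share its depth and scaling.

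In the striatum/thalamus, miR-200c-3p was 78.6, 19.6, 15.8, and 16.8 CPM in sham pups 2, 3, 6, and 8, and 28.4, 23.7, 49.0, and 82.7 CPM in HIBI pups 1, 4, 5, and 7. In the cortex it was 59.8, 24.6, 22.4, and 14.2 CPM in the sham pups and 5.54, 29.5, 13.4, and 24.5 CPM in the HIBI pups. In the cerebellum it stayed between 7.71 and 15.6 CPM, so the cerebellar excess of the cluster was not shared by it. The highest sham library in both forebrain regions, pup 2, and the highest HIBI library in the striatum/thalamus, pup 7, were those that led in miR-182-5p. The HIBI cortex differed, with pup 5 leading in miR-182-5p and pup 4 in miR-200c-3p.

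**Figure D4:**
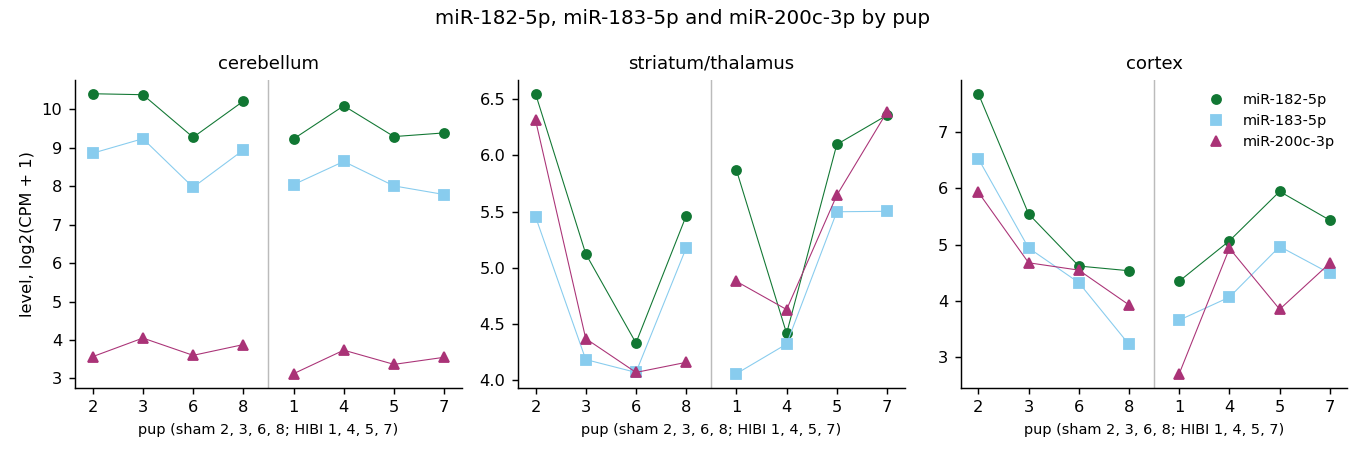
Levels of miR-182-5p, miR-183-5p, and miR-200c-3p as log2(CPM + 1) (vertical axis, a scale of its own in each panel) by pup, with sham pups left and HIBI pups right of the gray line in each region. Lines join the pups of a group for legibility and carry no order. In the striatum/thalamus the 3 miRNAs are highest in pup 2 among sham and in pup 7 among HIBI pups, and in the cerebellum miR-200c-3p stays between 7.71 and 15.6 CPM.

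Other epithelial miRNAs were read in the same libraries. In the cortex of sham pup 2, miR-200b-3p was 86.3 CPM (29.7 to 49.2 CPM in the other sham cortices) and miR-200a-3p 16.2 CPM (1.21 to 7.98 CPM). MiR-429-3p, at 22.9 CPM, lay within the range of the others, miR-141-3p had 0 reads, and miR-375-3p, known from endocrine cells, was at its lowest there (85.9 CPM, against 123 to 216 CPM). The whole list of 8 pituitary, endocrine, and epithelial miRNAs had 7 with reads in the sham cortex and summed to 4487 CPM in pup 2, within the 2126 to 4774 CPM of the other sham cortices. Most of the sum in pup 2 was miR-7a-5p (3303 CPM) and miR-7b-5p (913 CPM), so it says little about the other miRNAs of the list. The hindbrain list was at its lowest of the 4 in this library (37.3 CPM), as were the erythrocyte (734 CPM) and choroid plexus and ciliated lists (2064 CPM). The myeloid list (745 CPM, against 600 to 637 CPM) and the endothelium and mural list (6632 CPM, against 4846 to 6514 CPM) were at their highest there. The neuronal (198355 CPM) and skeletal muscle (50.8 CPM) lists lay within the range of the other sham cortices. The part of other cell types in the level of pup 2 was not tested further.

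The shares of miR-182-5p and miR-183-5p in the members' reads were similar in each cerebellum library. MiR-182-5p made up 70.7 ± 2.44% of the members' reads in the sham and 71.6 ± 2.43% in the HIBI cerebellum (SD, n = 4), and miR-183-5p 28.4 ± 2.33% and 27.5 ± 2.56%. The shares of the rare members, on few reads, varied more between cerebellum libraries. MiR-96-5p took 0.166% to 1.37% in sham and 0.148% to 1.03% in HIBI libraries, and miR-183-3p 0.138% to 0.473% and 0.131% to 0.633%. In the forebrain the mean share of miR-182-5p was 61.2% to 64.8% by group. The number of reads of miR-182-5p per read of miR-183-5p, which does not depend on library scaling, was 2.57 ± 0.303 in cerebellum, 1.84 ± 0.843 in striatum/thalamus, and 1.92 ± 0.437 in cortex libraries (SD, n = 8). It was 2.50 ± 0.301 in sham and 2.63 ± 0.337 in HIBI cerebellum libraries, and the ranges overlapped.

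The ratio was higher in the cerebellum than in the cortex of the same pup in 7 of 8 pups, by 0.44 ± 0.32 on the log2 scale (SD), with an exact permutation p of 0.0156 over the signs of the 8 pups (adjusted p = 0.0469 over 3 comparisons, smallest p allowed 0.00781). Against the striatum/thalamus it was higher in 7 of 8 pups, by 0.58 ± 0.63 (exact permutation p = 0.0469, adjusted p = 0.0703), and the forebrain regions differed by -0.14 ± 0.71 (exact permutation p = 0.586). The HIBI pup 1 striatum/thalamus library, with 81 and 22 reads, had the highest ratio of all (3.68). Without each pup in turn, the cerebellum minus cortex difference was 0.37 to 0.53 with exact permutation p of 0.0156 to 0.0312. This comparison was chosen after the values had been seen, and the sequences of the miRNAs compared are identical at 18 of 22 bases, so that a rule for reads matching both could shift it.

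**Figure D5:**
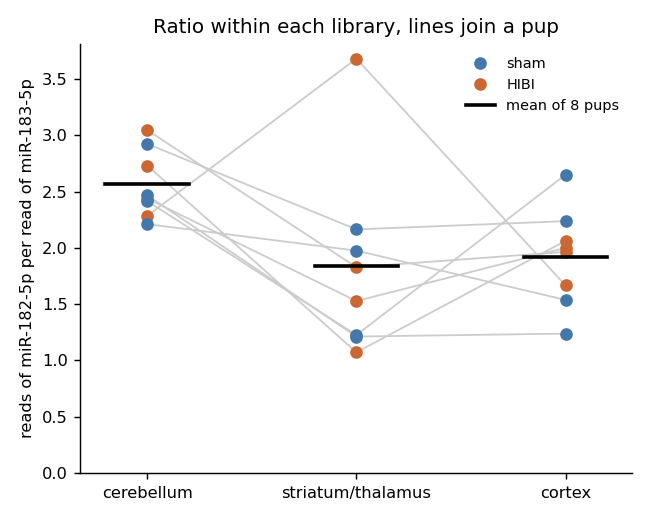
Reads of miR-182-5p per read of miR-183-5p (vertical axis, from 0) in each library by region, sham in blue and HIBI in orange. Gray lines join the libraries of a pup and black bars are means of 8 pups (2.57, 1.84, and 1.92). The cerebellum libraries lie within 2.21 to 3.05, and the forebrain libraries spread from 1.07 to 3.68.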

How the data were processed

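Small RNA libraries were made from 200 ng of RNA with the NEXTFLEX kit. The authors aligned reads with Bowtie2 to mature mouse miRNAs of miRBase and deposited raw read counts per miRNA and library, with no normalization. Versions and the handling of reads that fit more than one miRNA are not given in the sources used here. The same tables hold the authors' log2 fold changes, average log2 CPM, p-values, and false discovery rates, which were not used. Every count column matched a pup and region by name. The 20 castor bean entries (84 reads, 0.000156%) were left out. Counts were analysed with edgeR 4.0.16 in R 4.3.3 (TMM, glmQLFit, glmQLFTest), keeping miRNAs above 10 CPM on average and the 4 members whatever their level. DESeq2 1.42.0 was an alternative. Code was tested on simulated data. Exact permutation tests of HIBI against sham used 70 arrangements of log2(CPM + 1). Those of correlations used all pairings of the 8 pups, and those of the ratio used 256 arrangements of the signs of log2 ratios. The same pup gave all 3 regions, so regions are paired by pup. The main edgeR tests between regions and over all 24 libraries did not use this pairing, and a block for the pup was an alternative. Deviations from group means correlated between regions with a median r of 0.18 to 0.32 over 379 miRNAs, above 0.1 in 6 to 7 of 8 pups. MiRNAs named were the members, other arms of their hairpins, the 5 most similar in level and the 5 most similar in deviation, and marker miRNAs where a library stood apart. No fold is given for a member with under 10 reads in a comparison, a rule set after the counts were seen. The members and lists were chosen with earlier results of these data known. Depth ranged from 1254185 to 3406624 reads, and intervals and floors cover counting error only.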

Additional observations from a re-analysis of the deposited data

Results flagged for a closer look

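Dixon's test of the highest and lowest library was run in groups of 4 libraries, on CPM without a log scale. Of the 18 groups in which more than 1 library had reads it marked 2, where chance marks about 1 in 20. MiR-182-5p stood apart in the cerebellum of HIBI pup 4, at 1090 CPM against at most 668 CPM in the rest of its group, and in the cortex of sham pup 2, at 203 CPM against at most 45.6 CPM. MiR-183-5p was highest in the same libraries, at 399 and 90.8 CPM, without passing the test itself. The test was not run on log2 values, so these marks hold for the CPM scale only.

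In 4 more groups a single library had any reads. The test marks such a group whatever the count, so these marks carry no weight and only the values are given. MiR-96-5p was at 0.971 CPM (2 reads) in the striatum/thalamus and at 0.336 CPM (1 read) in the cortex of HIBI pup 5. MiR-183-3p was at 2.53 CPM (6 reads) in the striatum/thalamus of HIBI pup 7 and at 2.46 CPM (5 reads) in the cortex of HIBI pup 4.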

How the results depend on the processing

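The lower level of miR-182-5p and miR-183-5p in the forebrain kept its direction and its call under every alternative run. The count of members passing the HIBI criteria in the cerebellum (1) was 0 with library size alone and with all 24 libraries in a single fit, 2 with upper quartile scaling and with no CPM minimum, and 0 to 2 with a pup left out. Among all miRNAs of the cerebellum, 36 of 436 were counted, 51 of 436 with library size alone, and 49 of 437 in the single fit. Upper quartile scaling counted 46 of 436, no CPM minimum 106 of 1315, and leaving a pup out 18 to 79. In the cortex (0) the count of members was 2 with no CPM minimum and 0 to 1 with a pup left out. Among all miRNAs it was 86 of 1290 and 10 to 17, against 14 of 412. Between the forebrain regions of sham pups (0) the count of members was 1 with no CPM minimum and 1 with DESeq2. Among all miRNAs it was 150 of 1380 and 156 of 425, against 155 of 425. The cause of these shifts was not tested. MiR-183-3p in the sham cortex against the cerebellum lost its call with a 1 CPM minimum, no minimum, DESeq2, and all 24 libraries (adjusted p = 0.0603 to 0.282).

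Log2 values that changed sign were those of differences that had not passed. For HIBI against sham in the cerebellum, miR-183-3p was 0.014 with library size alone and -1.02 to 0.17 with a pup left out. With a pup left out, miR-182-5p and miR-183-5p ranged from -0.025 to 0.75 and -0.14 to 0.38 in the striatum/thalamus, and from -1.25 to 0.37 and -1.24 to 0.086 in the cortex, where miR-183-3p ranged from -4.39 to 0.26. Striatum/thalamus against cortex ranged from -0.99 to 0.10 and -0.94 to 0.27 in sham pups, and from -3.74 to 4.15 for miR-183-3p in HIBI pups. The forebrain minus cerebellum difference of the injury effect ranged from -0.0093 to 1.08 and -0.038 to 0.92. With the pup as a replicate block, miR-183-3p in the HIBI cortex against the cerebellum gained its call (-2.88, adjusted p = 0.0450 by edgeR), and this pairing changed no other call. The ratio of miR-182-5p to miR-183-5p between cerebellum and striatum/thalamus, an alternative chosen after the data were seen, ranged from 0.48 to 0.77 with a pup left out, with p under 0.05 in 1 of 8.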

Other observations

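The opposite arm of the Mir182 hairpin, miR-182-3p, had 2 reads in all, both in the cerebellum of HIBI pup 1, where miR-182-5p had 932 reads.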
